A study of Homo sapiens with 15 samples.

Results

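The ATF4 amino acid response was followed as a set of 45 genes, read out by gene symbol from a table of 57820 gene identifiers. The set holds the transcription factor ATF4, its partners and feedback regulators, and the enzymes, amino acid transporters, tRNA synthetases and secreted proteins that it is known to control. In MOLM-13 all 45 were above 0, in HL-60 41 were and in U937 40 were, and 39 were above 0 in all 3 lines. The others were listed at 0 in every library of the line, which is how genes below the authors' filter on low counts appear. These were ALDH1L2, INHBE and SLC6A9 in U937 and HL-60, PYCR1 and STC2 in U937, and NUPR1 in HL-60.

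ATF4 is a basic leucine zipper transcription factor whose mRNA is translated more when the initiation factor eIF2 is phosphorylated by a stress kinase, for example on amino acid shortage or on stress of the endoplasmic reticulum. It binds with a C/EBP or other partner to composite sites and drives genes that make amino acids, carry them into the cell and charge them onto tRNAs. Its targets DDIT3, TRIB3 and PPP1R15A feed back on the response, and asparagine and serine synthesis are among its best known outputs in leukemia cells. Since control of ATF4 is largely translational, the mRNA level of ATF4 is not a measure of its protein.

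RNA was sequenced from 3 human acute myeloid leukemia lines, MOLM-13, U937 and HL-60. Each line had been transduced either with the empty pLKO vector or with a short hairpin against RNF5 (shRNF5), a ubiquitin ligase of the endoplasmic reticulum membrane. HL-60 contributed 3 libraries of each construct, U937 contributed 2 of each, and MOLM-13 contributed 3 with pLKO and 2 with shRNF5, 15 in all. The sample labels place the RNA harvest at day 7 after knockdown and the series text at day 5, a kit that reads transcript 3′ ends is named in the labels and a directional poly(A) kit in the study's methods, and which RNF5 hairpin was sequenced is not stated in the sources used here. Each line is a single established line and the empty vector carries no hairpin, so a response common to any hairpin cannot be told apart from one to loss of RNF5. The study states in general that its experiments were repeated independently, but the labels do not say whether the replicates here were separate cultures, so the p-values measure the spread between these libraries, which may be technical.

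The RNF5 normalized read count lay between 506 and 1223 in the pLKO libraries and between 37 and 133 in the shRNF5 libraries, with no overlap in any line. Estimated depth ran from 9700000 reads in MOLM-13 pLKO replicate 3 to 63800000 in MOLM-13 shRNF5 replicate 1. The upper end is less certain, since the low values followed the estimated steps less closely in MOLM-13 shRNF5 replicates 1 and 2 (r = 0.427 and -0.024, across values) than in pLKO replicate 3 (r = 0.941). All 10 myeloid markers looked at were above 0 in every line, and no T cell marker was above 0. Epithelial markers in HL-60 summed to between 6 and 8 with pLKO and between 18 and 25 with shRNF5, all from KRT8, with 4 of 5 at 0. In HL-60 the summed myeloid markers were between 117302 and 142626 with pLKO and between 155635 and 225006 with shRNF5, with 6 markers called higher and 1 called lower, and the part of these shifts in the HL-60 results was not tested. The lines had been normalized separately, so a level in one line cannot be set against the level in another.

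A single control library stood apart for these genes. MOLM-13 pLKO replicate 3, the library with the lowest estimated depth, was the highest of the 5 MOLM-13 libraries for 40 of the 45 members. It lay a median of 0.61 on the log2 scale above the mean of the other pLKO libraries. In it, 21 members (46.7%) were at least 1.5-fold above the mean of the other pLKO libraries, against 7.19% of all genes. CHAC1 was at 620 there and at 97 and 107 in the other pLKO libraries, STC2 at 720 against 179 and 159, CTH at 597 against 108 and 140, and ASNS at 4673 against 1411 and 2166. Values without this library are therefore given beside the MOLM-13 calls and beside many of the uncalled members described. In U937, NUPR1 was at 701 in pLKO replicate 2 and at 25 in pLKO replicate 3, and PPP1R15A at 3531 and 1066, although the share of members at least 1.5-fold higher there (17.5%) was close to that of all genes (14.8%).

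**Figure D1:**
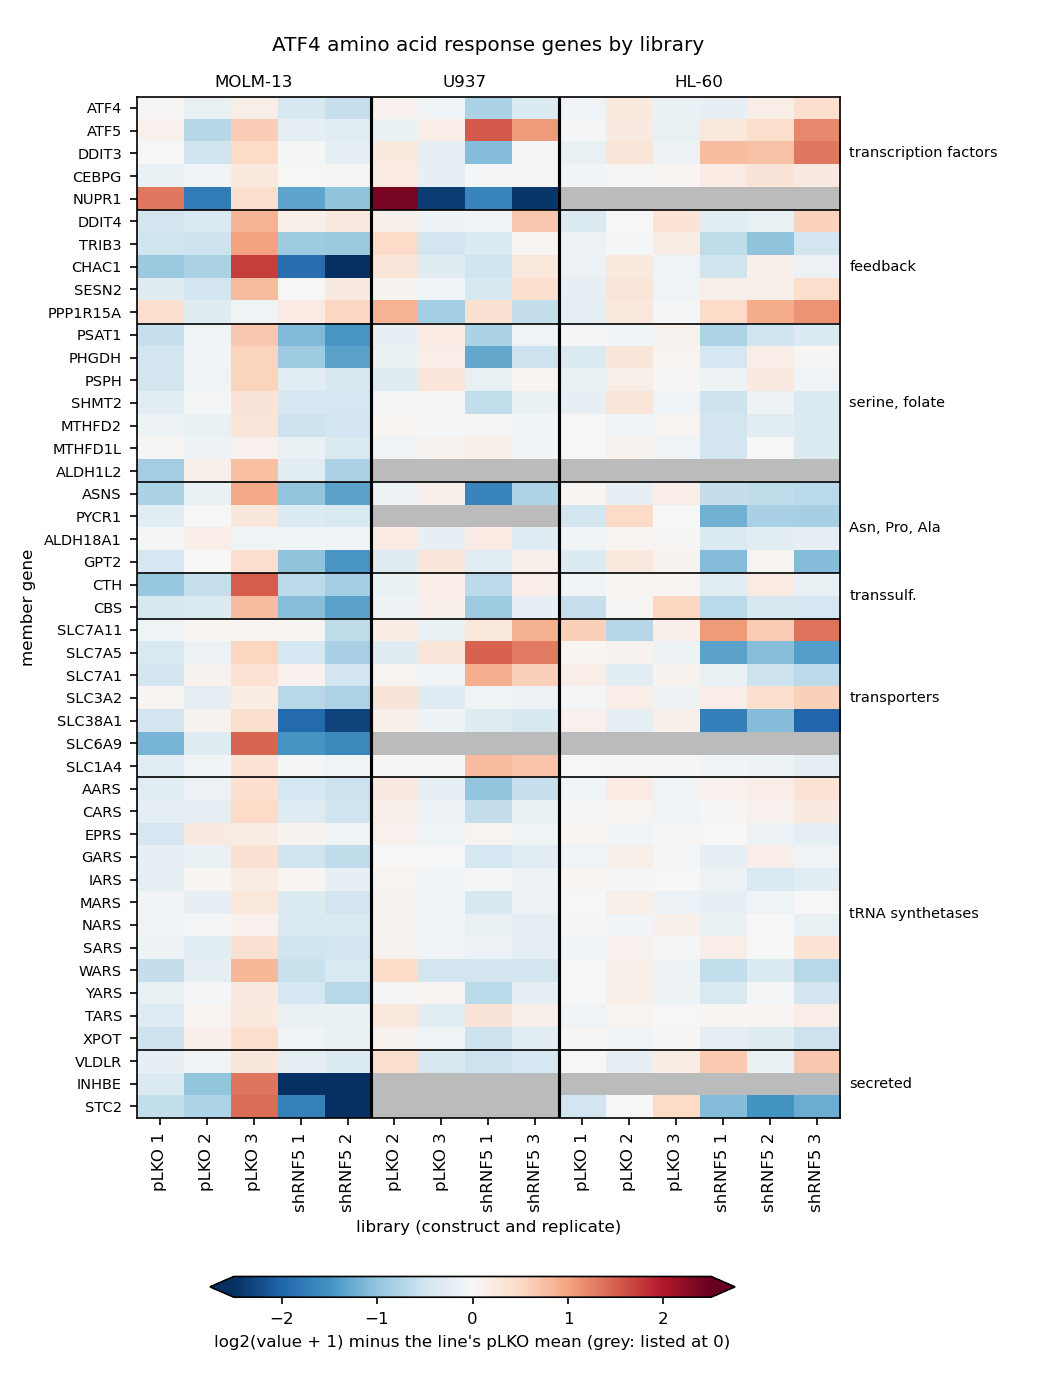
Heat map of the 45 members (rows, ordered by role) in the 15 libraries (columns). Colour gives log2(normalized read count + 1) minus the mean of the line's pLKO libraries, capped at 2.5 on either side, and grey marks genes listed at 0 in the line; the MOLM-13 pLKO replicate 3 column is the warmest of its line.

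The composite site that ATF4 binds with a C/EBP partner has the core TGATGNAA. This core was sought on both strands of RefSeq promoter windows (GRCh38.p14, 250 bases before to 50 after each annotated start), with no other motif searched. Of the 36 members with a window, 15 (41.7%) held a match, against 1217 of all 27305 genes with a window (4.46%). The matches fell in 7 of 11 members among the tRNA synthetases and tRNA export (AARS, CARS, GARS, IARS, MARS, NARS and TARS), in 4 of 6 transporters (SLC7A1, SLC3A2, SLC38A1 and SLC1A4), and in ASNS, CHAC1, CEBPG and MTHFD1L. Outside the members it was held by 4 of 12 other ATF4 partners and targets (33.3%), by 2 of 14 other amino acid transporters (14.3%) and by 0 of 9 other cytosolic synthetases and their scaffold proteins. A match describes letters in a window and is no evidence that ATF4 was bound. The windows of CHAC1 and of the members with a match that were called in a line are shown, as 30 bases on the strand that carries the core, with the core in capitals.
ASNS: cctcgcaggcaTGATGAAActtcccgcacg
CHAC1: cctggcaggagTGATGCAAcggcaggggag
SLC7A1: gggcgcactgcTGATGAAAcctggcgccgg
SLC3A2: ggagcTGATGTAAggagtcctgcacattac
SLC38A1: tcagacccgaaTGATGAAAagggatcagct
SLC1A4: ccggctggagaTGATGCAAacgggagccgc
AARS: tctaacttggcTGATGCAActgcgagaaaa

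On GRCh38.p14 the ASNS window is chr7:97872458-97872487 (reverse strand), with the core beginning at base -68 from the start, where the first transcribed base is 1. The CHAC1 window is chr15:40953251-40953280, with the core at -209 on the strand opposite to the gene. The SLC38A1 core at -4 (chr12:46266502-46266531) and the SLC7A1 core at 8 (chr13:29595663-29595692) lie at the start itself, in the sense of the gene. Those of SLC3A2 (chr11:62881719-62881748, base 38), SLC1A4 (chr2:64989381-64989410, base -7) and AARS (chr16:70289675-70289704, base -187) are on the opposite strand. To show the longer context of the core in ASNS, the 250 bases before its start (chr7:97872409-97872658, reverse strand) read as follows.
ASNS upstream: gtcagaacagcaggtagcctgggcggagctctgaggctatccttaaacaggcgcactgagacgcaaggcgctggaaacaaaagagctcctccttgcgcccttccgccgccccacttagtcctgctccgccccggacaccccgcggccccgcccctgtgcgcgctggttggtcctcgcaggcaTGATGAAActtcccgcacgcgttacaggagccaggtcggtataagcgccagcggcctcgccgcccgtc

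Levels were compared between genes as normalized read count per kilobase of transcript, which presumes reads along the whole transcript and would not hold for a kit that reads 3′ ends. On that scale ATF4 was among the most abundant mRNAs of every line, at the 98.7th percentile of genes in pLKO MOLM-13 and U937 and at 98.6 in HL-60. The tRNA synthetases and the export receptor XPOT lay between the 67.5th and the 98.4th percentile in the 3 lines. The lowest members were NUPR1 at 1.3, SLC6A9 at 9.9 and INHBE at 11.5 in MOLM-13, CBS and then CHAC1 in HL-60, and CHAC1 at 20.4 in U937. ATF5 spanned a wide range, at the 41.0th percentile in U937, 63.8 in MOLM-13 and 91.5 in HL-60, and CBS, so low in HL-60, was at 67.7 in MOLM-13.

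Fold changes were taken from limma on log2(normalized read count + 1), a scale that understates the change of low genes. A gene was called at a Benjamini-Hochberg adjusted p under 0.1 over all genes of the line and an absolute log2 fold change over 0.4. In MOLM-13, 4 of the 45 members were lower with shRNF5 (8.89%) and 0 were higher, against 1.01% of all genes called lower, 1.03% called higher and 2.04% in either direction. At an unadjusted p under 0.05, 20 members were lower and 0 higher, or 15 lower and 2 higher without pLKO replicate 3. The share of all genes at an unadjusted p is not given here or below. Such counts therefore cannot be set against a background. The members' median log2 fold change was -0.47, against 0.01 over all genes, and 26 members had both shRNF5 libraries below every pLKO library, where 38.7% of all genes had groups that did not overlap in either direction. Without pLKO replicate 3, 1 member was called (against 0.315% of all genes), the median was -0.27, and 11 members had a log2 fold change above 0 in place of 5.

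In U937, 4 of 40 members rose and 3 fell with shRNF5, together 17.5%, a share near the 15.7% of all genes called in that line (6.92% higher and 8.74% lower). The groups did not overlap for 20 members, 5 of them higher and 15 lower with shRNF5, against 59.2% of all genes. The median member log2 fold change was -0.17, against 0.00 over all genes. With 2 libraries a group, each of these calls rested on single libraries. No member was called by limma without pLKO replicate 2, without shRNF5 replicate 1 or without shRNF5 replicate 3, where 6, 3 and 7 members had an unadjusted p under 0.05. Of all genes, 0%, 0% and 0.0456% were called in those fits. Without pLKO replicate 3 the calls of ASNS, PHGDH, SLC7A1 and SLC1A4 were lost as well, and those of ATF5, SLC7A5 and AARS were kept. The median member log2 fold change was then -0.33. In these fits the library left alone in its group is assumed to vary like the other group.

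In HL-60, 4 of 41 members rose and 9 fell, together 31.7%, against 25.9% of all genes (13.6% higher and 12.3% lower). The groups did not overlap for 18 members, 5 higher and 13 lower with shRNF5, and for 38.5% of all genes. The median member log2 fold change was -0.12, against 0.00 over all genes. Leaving out single HL-60 libraries moved this count by less than 1.5 times. Over the 3 lines, 26 members were called in none, 14 in a single line, 5 in a pair of lines (ASNS, ATF5, SLC38A1, SLC7A1 and SLC7A5) and 0 in all 3.

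**Figure D2:**
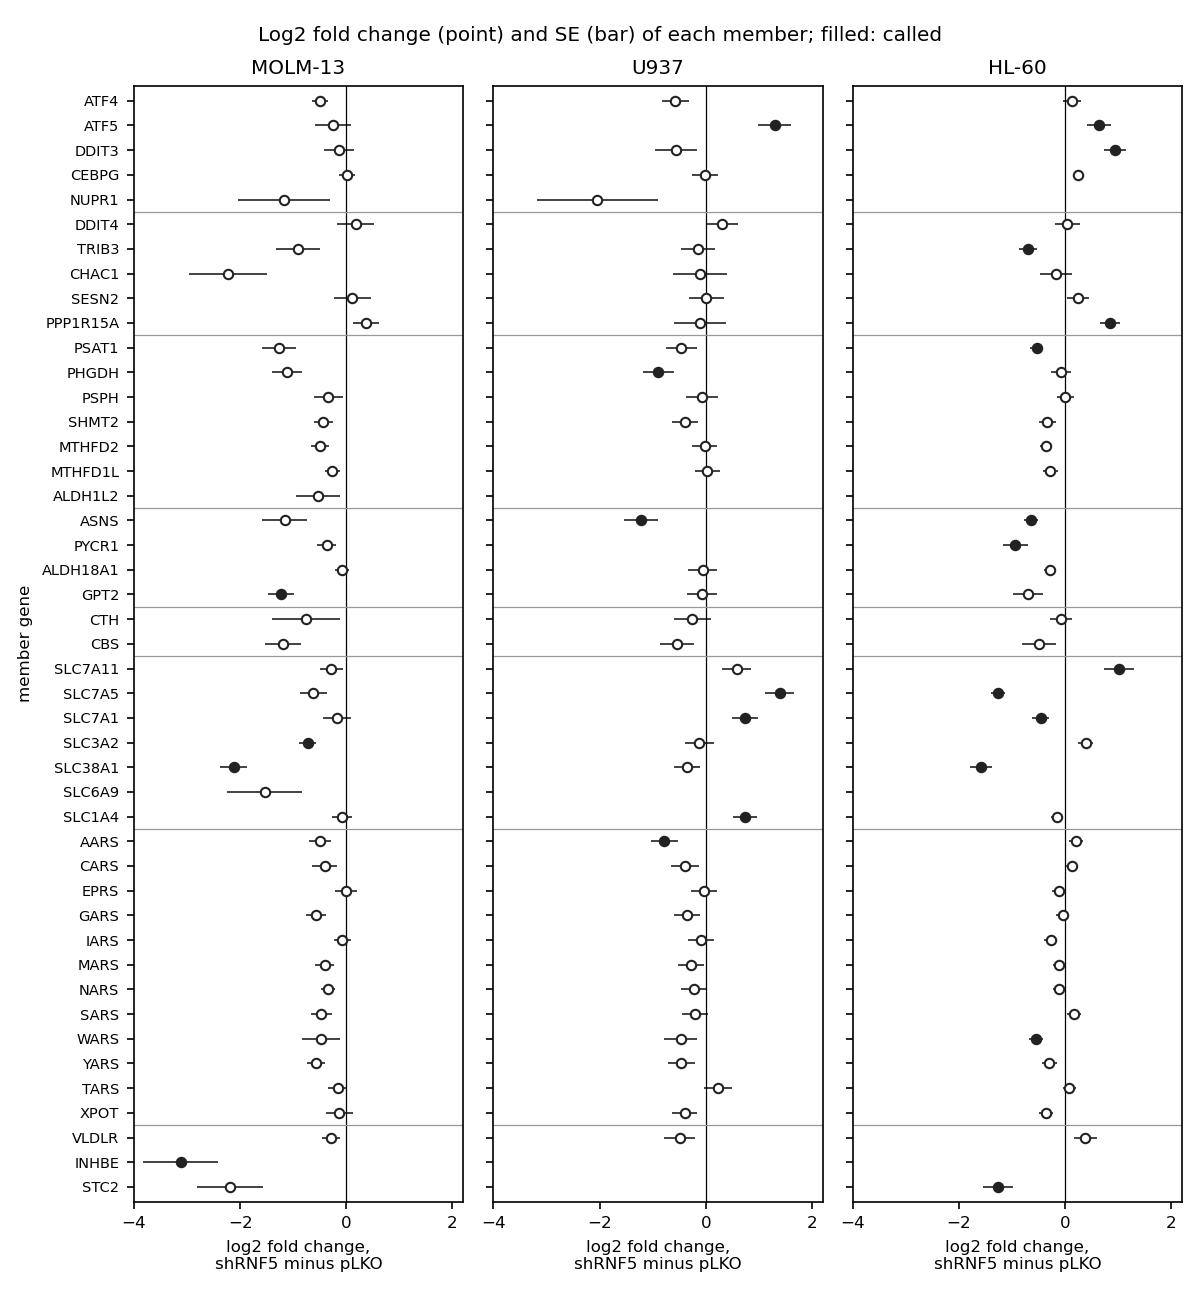
Log2 fold change of shRNF5 against pLKO (points, on the log2(normalized read count + 1) scale) with its standard error (bars) for each member in MOLM-13, U937 and HL-60; filled points were called and gaps are genes listed at 0. Below 0 lie 40 of 45 points in MOLM-13, 31 of 40 in U937, and 26 of 41 for HL-60.

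Among the transcription factors, ATF5 rose in U937 and HL-60, and DDIT3 rose in HL-60, while the ATF4 mRNA was called in no line. ATF4 (chr22:39915700-39918688 on GRCh37) was at 10655, 9175 and 11469 in the MOLM-13 pLKO libraries and at 7859 and 6933 with shRNF5. Both shRNF5 libraries were below the pLKO libraries, with a log2 fold change of -0.49 ± 0.15 (SE) that did not pass the test (limma adjusted p = 0.173). In U937 it was at 6851 and 5839 with pLKO and 3662 and 4965 with shRNF5, again lower without passing (log2 fold change -0.57 ± 0.26, limma adjusted p = 0.181). In HL-60 the groups overlapped, with 5995, 7542 and 5633 against 5502, 7124 and 8505, and the log2 fold change was 0.13 ± 0.17 (limma adjusted p = 0.628).

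ATF5, a relative of ATF4 that is also under translational control, lies at chr19:50431959-50437192 on GRCh37. In U937 it was at 209 and 260 with pLKO and at 676 and 489 with shRNF5, 2.48-fold higher in the means, with a log2 fold change of 1.30 ± 0.31 (limma adjusted p = 0.0398). In HL-60 it was at 2240, 2642 and 1991 with pLKO and at 2725, 3095 and 5235 with shRNF5, a log2 fold change of 0.64 ± 0.22 (limma adjusted p = 0.0624). Every shRNF5 library was above every pLKO library in both lines, although the HL-60 rise was largest in shRNF5 replicate 3 and was not called without that library, without pLKO replicate 1 or without pLKO replicate 3. In MOLM-13 the 3 pLKO libraries, at 826, 464 and 1168, spanned the shRNF5 values of 646 and 639. ATF5 shares 565 exon bases with NUP62 on the opposite strand, and without a stated strand setting in the counting the reads of the pair cannot be told apart.

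DDIT3 encodes CHOP, the pro-apoptotic partner of C/EBP proteins that ATF4 induces, and lies at chr12:57910371-57915520. In HL-60 it was at 128, 181 and 134 with pLKO and at 251, 242 and 364 with shRNF5. All shRNF5 libraries were above all pLKO libraries, with a log2 fold change of 0.94 ± 0.21 (limma adjusted p = 0.0134). In U937 the libraries overlapped, at 430 and 305 against 170 and 353 (log2 fold change -0.56 ± 0.39, limma adjusted p = 0.378). In MOLM-13 they overlapped too, at 407, 288 and 576 against 395 and 348. The gene shares 355 exon bases with MARS, itself a member with counts up to 10690, on the opposite strand, so that part of a DDIT3 count could be MARS reads. Of the remaining factors, CEBPG, a dimer partner of ATF4, had log2 fold changes between -0.01 and 0.25 in the 3 lines, and NUPR1 was called in no line.

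The feedback regulators did not share a direction. TRIB3, a pseudokinase that restrains ATF4, fell in HL-60, where it was at 636, 673 and 787 with pLKO and at 450, 346 and 508 with shRNF5. The groups did not overlap, and the log2 fold change was -0.70 ± 0.17 (limma adjusted p = 0.017). In U937 it was at 2989 and 1522 against 1693 and 2214, with overlap. In MOLM-13 it was at 748, 739 and 2116 against 567 and 553, a log2 fold change of -0.91 ± 0.42 that did not pass (limma adjusted p = 0.316) and was -0.41 ± 0.16 without pLKO replicate 3.

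PPP1R15A (GADD34), the phosphatase subunit that reverses eIF2 phosphorylation, rose in HL-60. It was at 283, 402 and 323 with pLKO and at 463, 632 and 727 with shRNF5, with no overlap and a log2 fold change of 0.84 ± 0.19 (limma adjusted p = 0.0146). In HL-60 PPP1R15A and DDIT3 therefore rose while TRIB3 fell. CHAC1, which degrades glutathione, was called in no line. In MOLM-13 it was at 97, 107 and 620 with pLKO and at 49 and 31 with shRNF5, so that both shRNF5 libraries were lowest (log2 fold change -2.23 ± 0.74, limma adjusted p = 0.204), and the value without pLKO replicate 3 was -1.36 ± 0.35. In U937 and HL-60 its groups overlapped, between 42 and 74 and between 21 and 36. DDIT4 and SESN2, which hold back mTORC1, were called in no line, with log2 fold changes between 0.01 and 0.30, and in MOLM-13 without pLKO replicate 3 they stood at 0.60 and 0.51, still not called (limma adjusted p = 0.116 and 0.189).

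**Figure D3:**
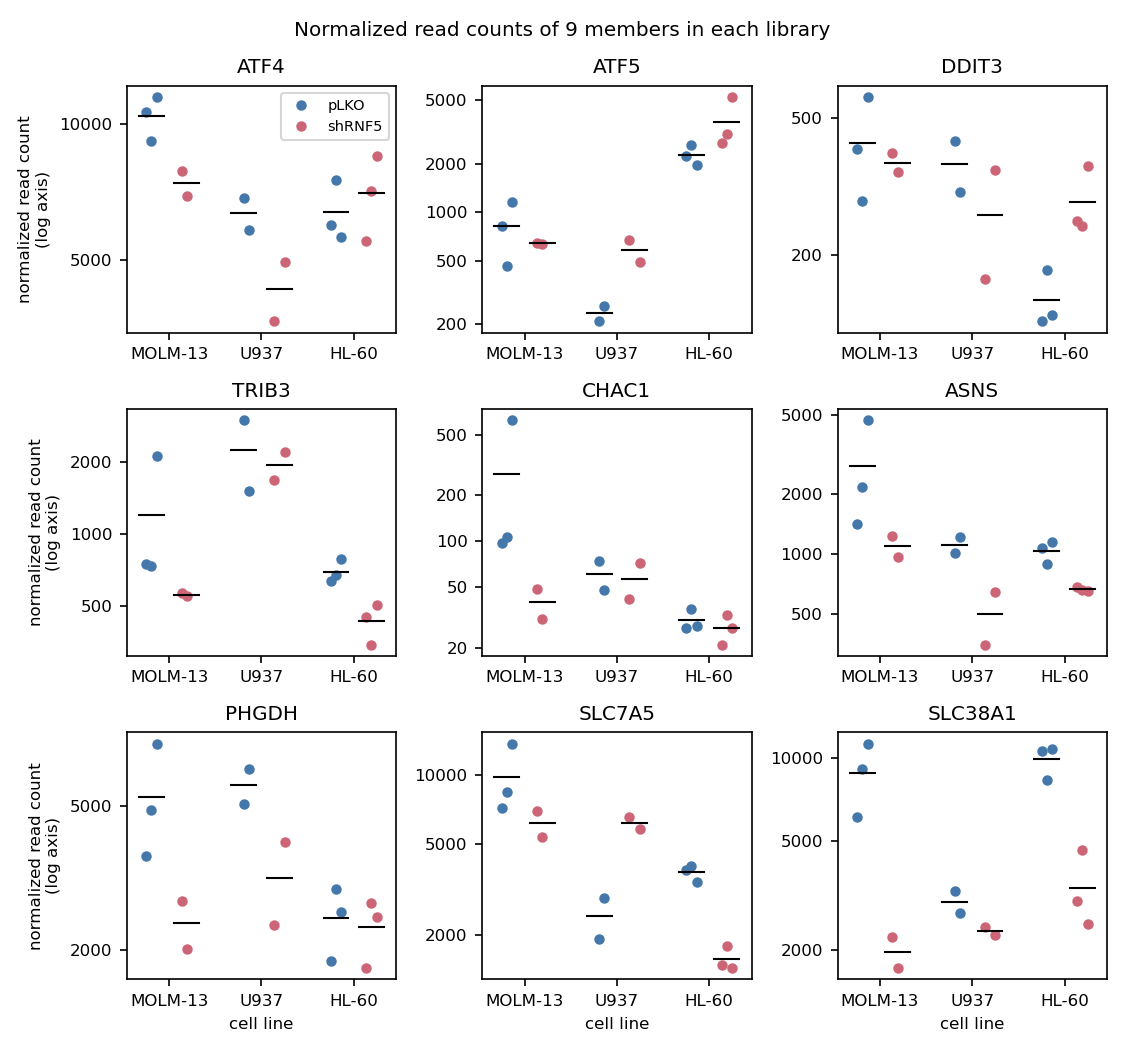
Normalized read count (log axis) of 9 members in each library by cell line, with pLKO in blue and shRNF5 in red; each point is a library and each horizontal line a group mean. SLC7A5 with shRNF5 lies above pLKO in U937 and below it in HL-60, and a single MOLM-13 pLKO library sets the high CHAC1, TRIB3 and ASNS means.

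The biosynthetic enzymes moved downward where they were called. ASNS (chr7:97480989-97501854 on GRCh37), the asparagine synthetase that is a standard reporter of this response, fell in U937 and HL-60. It was at 1004 and 1207 with pLKO and 349 and 641 with shRNF5 in U937, a log2 fold change of -1.22 ± 0.32 (limma adjusted p = 0.0507). In HL-60 it was at 1070, 888 and 1149 with pLKO and at 680, 659 and 648 with shRNF5, a log2 fold change of -0.64 ± 0.13 (limma adjusted p = 0.0095). The groups did not overlap in either line. In MOLM-13 the values were 1411, 2166 and 4673 with pLKO and 1231 and 961 with shRNF5, again without overlap, but the log2 fold change of -1.16 ± 0.42 did not pass (limma adjusted p = 0.237) and was -0.68 ± 0.25 without pLKO replicate 3. Without pLKO replicate 1, by contrast, ASNS was called in MOLM-13 at -1.55 ± 0.34 (limma adjusted p = 0.0755).

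PHGDH, which commits the glycolytic intermediate 3-phosphoglycerate to serine, fell in U937. It was at 5068 and 6329 with pLKO and at 2347 and 3967 with shRNF5, with no overlap (log2 fold change -0.89 ± 0.29, limma adjusted p = 0.0853). In MOLM-13 it was at 3627, 4861 and 7437 against 2726 and 2010, also without overlap, at -1.12 ± 0.28 (limma adjusted p = 0.126) and -0.84 ± 0.22 without pLKO replicate 3. Without pLKO replicate 1 PHGDH was called there, at -1.36 ± 0.23 (limma adjusted p = 0.046). In HL-60 the libraries overlapped, at 1865, 2953 and 2542 against 1783, 2693 and 2469 (log2 fold change -0.08 ± 0.19). PSAT1, the next enzyme of the path, was called in HL-60 only, at -0.54 ± 0.13 (limma adjusted p = 0.0201). Its fall in MOLM-13 was larger but not past the test, at -1.27 ± 0.32 (limma adjusted p = 0.126). The libraries there were at 4804, 6670 and 11366 against 3346 and 2607, without overlap. The value was -0.94 ± 0.21 without pLKO replicate 3. Without pLKO replicate 1 it was called, at -1.56 ± 0.25 (limma adjusted p = 0.0415). In U937 the PSAT1 libraries overlapped (log2 fold change -0.46 ± 0.29). The PSAT1 response did not pass the test of a difference between lines in any pair.

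The other serine and folate enzymes, PSPH, SHMT2, MTHFD2, MTHFD1L and the mitochondrial ALDH1L2, were called in no line with all libraries. Their log2 fold changes ran from -0.36 to 0.00 in HL-60, from -0.39 to 0.03 in U937 and from -0.53 to -0.26 in MOLM-13, where they ran from -0.36 to -0.07 without pLKO replicate 3. Without pLKO replicate 1, SHMT2 (-0.57 ± 0.14, limma adjusted p = 0.0917) and ALDH1L2 (-0.97 ± 0.25, limma adjusted p = 0.0997) were called in MOLM-13. Without shRNF5 replicate 2, SHMT2 (-0.44), MTHFD2 (-0.40) and MTHFD1L (-0.41) were called in HL-60. In HL-60 PYCR1, which closes proline synthesis, fell from 320, 614 and 441 with pLKO to 192, 253 and 249 with shRNF5 (log2 fold change -0.94 ± 0.23, limma adjusted p = 0.0175). In MOLM-13 GPT2, the mitochondrial alanine transaminase, fell from 1788, 2353 and 3200 to 1190 and 868 (log2 fold change -1.23 ± 0.25, limma adjusted p = 0.0853). Neither gene's groups overlapped, and GPT2 was not called without pLKO replicate 3, at -1.01 ± 0.22 (limma adjusted p = 0.116). The transsulfuration enzymes CTH and CBS were called in no line. CBS had a log2 fold change of -1.20 ± 0.34 in MOLM-13 (limma adjusted p = 0.161) and of -0.81 ± 0.18 without pLKO replicate 3, and CTH, at -0.75 with all libraries, was at 0.01 without pLKO replicate 3.

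The amino acid transporters gave 9 of the 24 calls. In MOLM-13 2 of 7 were lower, against 2.04% of all genes called in either direction. In U937 3 of 6 were higher, against 15.7% called. In HL-60 1 of 6 was higher and 3 were lower, against 25.9% called. SLC7A5 and SLC7A1 were called in opposite directions in U937 and HL-60. SLC7A5 (LAT1), which brings in leucine and other large neutral amino acids, lies at chr16:87863629-87903113 on GRCh37. In U937 it was at 1922 and 2913 with pLKO and at 6586 and 5820 with shRNF5, 2.57-fold higher (log2 fold change 1.39 ± 0.27, limma adjusted p = 0.0219). In HL-60 it was at 3870, 4005 and 3418 with pLKO and at 1484, 1787 and 1439 with shRNF5, or 0.417 times the pLKO mean (log2 fold change -1.26 ± 0.13, limma adjusted p = 0.000616). Neither pair of groups overlapped, and in HL-60 the call held under every alternative tried. In MOLM-13 the shRNF5 libraries, at 6965 and 5399, were below the pLKO libraries at 7219, 8485 and 13774, but not past the test (log2 fold change -0.62 ± 0.26, limma adjusted p = 0.284), and the value was -0.35 ± 0.18 without pLKO replicate 3.

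SLC38A1, a sodium-coupled carrier of glutamine and other small neutral amino acids at chr12:46576846-46663800, fell in MOLM-13 and HL-60. In MOLM-13 it was at 6089, 9094 and 11259 with pLKO and at 2230 and 1727 with shRNF5, or 0.225 times the pLKO mean (log2 fold change -2.12 ± 0.25, limma adjusted p = 0.0275). It was the single member still called without pLKO replicate 3, at -1.92 ± 0.23 (limma adjusted p = 0.0994). Leaving out pLKO replicate 2 or shRNF5 replicate 2 ended the call, with log2 fold changes of -2.08 and -1.94, in fits that called 1 and 2 genes of all 13026. In HL-60 it was at 10632, 8295 and 10737 with pLKO and at 3013, 4628 and 2488 with shRNF5 (log2 fold change -1.59 ± 0.21, limma adjusted p = 0.00157), a call kept under every alternative. In U937 it was at 3279 and 2727 against 2433 and 2264, lower without overlap but not past the test (log2 fold change -0.35 ± 0.24, limma adjusted p = 0.364).

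SLC7A1, the main carrier of arginine and lysine, rose in U937 and fell in HL-60. It was at 1459 and 1333 with pLKO and 2603 and 2095 with shRNF5 in U937, with no overlap (log2 fold change 0.74 ± 0.24, limma adjusted p = 0.0861). In HL-60 it was at 5087, 3738 and 4807 with pLKO and 3962, 3114 and 2857 with shRNF5, where the groups overlapped (log2 fold change -0.46 ± 0.16, limma adjusted p = 0.0666). The HL-60 call was lost without pLKO replicate 1, pLKO replicate 3, shRNF5 replicate 2 or shRNF5 replicate 3. SLC1A4, a carrier of alanine, serine and cysteine, rose in U937 from 3675 and 3511 to 6126 and 5912 (log2 fold change 0.74 ± 0.23, limma adjusted p = 0.0759), and its libraries in each group lay close together. Leaving out any U937 library still ended the SLC1A4 call, and its log2 fold change ran from 0.71 to 0.78 over the alternatives.

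SLC7A11, the cystine importer of system xc-, and SLC3A2, the heavy chain that it shares with SLC7A5, also parted between lines. SLC7A11 rose in HL-60 from 1497, 609 and 1086 to 2096, 1553 and 2545, with no overlap (log2 fold change 1.02 ± 0.28, limma adjusted p = 0.0307), and was not called there without shRNF5 replicate 3. In U937 the shRNF5 libraries, at 1575 and 2432, were above the pLKO libraries at 1486 and 1152 without passing (log2 fold change 0.58 ± 0.28, limma adjusted p = 0.211). SLC3A2 fell in MOLM-13 from 4981, 4028 and 5469 to 2962 and 2796 (log2 fold change -0.73 ± 0.16, limma adjusted p = 0.095), and this was not called without pLKO replicate 3, at -0.64 ± 0.16 (limma adjusted p = 0.126). In HL-60 SLC3A2 overlapped between groups, at 1865, 2162 and 1745 against 2160, 2533 and 2911, and its log2 fold change of 0.39 fell short of the 0.4 required (limma adjusted p = 0.0732). The glycine carrier SLC6A9 was called in no line.

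**Figure D4:**
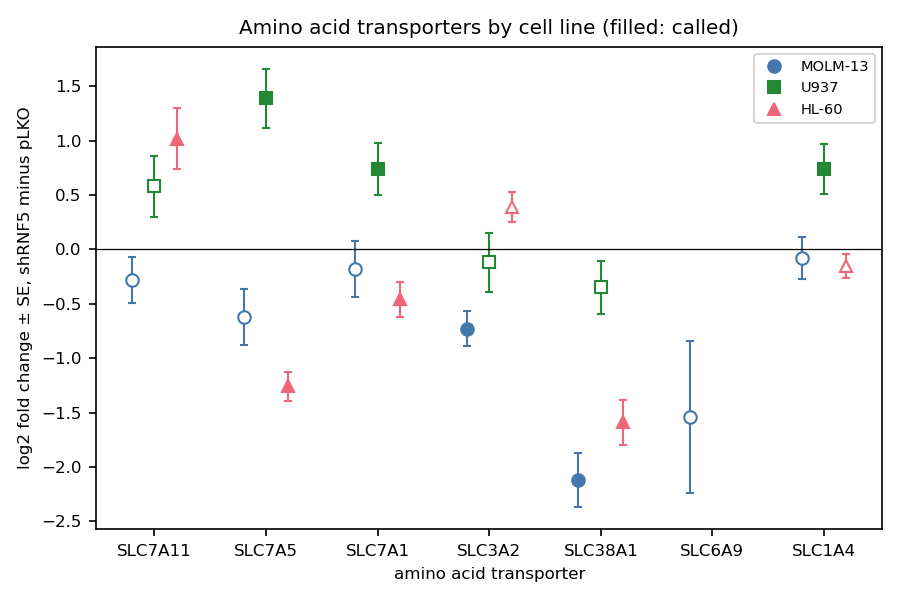
Log2 fold change (points) with its standard error (bars) of the 7 member transporters in MOLM-13 (circles), U937 (squares) and HL-60 (triangles); filled symbols were called, and SLC6A9 was listed at 0 in U937 and HL-60. SLC7A5 stood at 1.39 in U937 and -1.26 in HL-60.

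The aminoacyl-tRNA synthetases, which charge tRNAs with their amino acid, were seldom called. Of 12 members with XPOT, which exports tRNAs from the nucleus, 1 was called in HL-60 (8.33%), against 25.9% of all genes. In U937 1 was called (8.33%), against 15.7% of all genes. In MOLM-13 0 were called, near the 2.04% of all genes, and 6 were lower and 0 higher at an unadjusted p under 0.05. The log2 fold changes of the 12 ran from -0.55 to 0.20 in HL-60 and from -0.78 to 0.23 in U937. In MOLM-13 they ran from -0.57 to 0.00, or from -0.45 to 0.10 without pLKO replicate 3. AARS, the alanyl-tRNA synthetase, fell in U937 from 5906 and 4309 to 2565 and 3363, with no overlap (log2 fold change -0.78 ± 0.26, limma adjusted p = 0.093). In HL-60 its groups overlapped, with 2145, 2673 and 2197 against 2507, 2615 and 2942. WARS, the tryptophanyl-tRNA synthetase and also an interferon-induced gene, fell in HL-60 (log2 fold change -0.55 ± 0.13, limma adjusted p = 0.0183).

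Among the secreted and membrane proteins, INHBE, an activin subunit, was called in MOLM-13, where it was at 42, 27 and 138 with pLKO and at 4 and 7 with shRNF5. Both shRNF5 libraries were the lowest (log2 fold change -3.12 ± 0.70, limma adjusted p = 0.0981), the values are among the lowest of the set, and without pLKO replicate 3 it was at -2.46 ± 0.56 and not called (limma adjusted p = 0.119). The glycoprotein STC2 fell in HL-60 from 78, 108 and 155 to 51, 38 and 46, with no overlap and under every alternative tried (log2 fold change -1.27 ± 0.28, limma adjusted p = 0.0116). In MOLM-13 it was at 179, 159 and 720 against 84 and 42, a log2 fold change of -2.19 ± 0.63 that did not pass (limma adjusted p = 0.161) and was -1.49 ± 0.38 without pLKO replicate 3. The lipoprotein receptor VLDLR was called in no line.

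**Figure D5:**
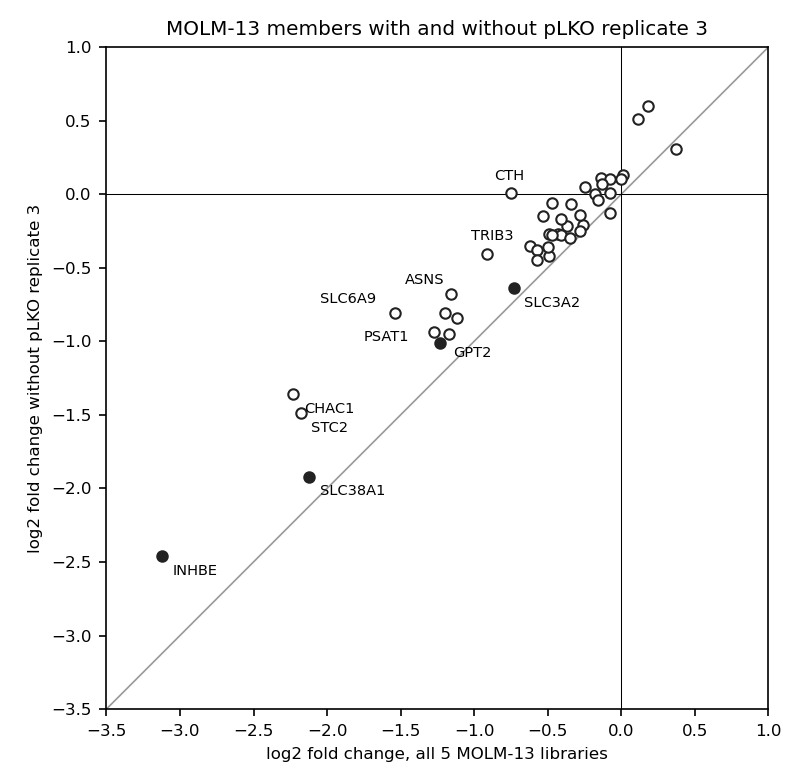
Log2 fold change of each member in MOLM-13 with all 5 libraries (horizontal axis) and without pLKO replicate 3 (vertical axis); the grey line marks equal values and filled points were called with all libraries. Without the library 34 of 45 members stayed below 0, and most points lie above the line, nearer to 0 than with all libraries or past it.

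Whether the response itself differed between lines was tested in a single limma fit over the 15 libraries, for the 39 members and 11072 genes above 0 in all 3 lines. Comparisons that share a line share its libraries. Between U937 and HL-60, 8 of 39 members differed at an adjusted p under 0.1, against 37.2% of all genes. SLC7A5 had the widest gap of these, with a response 2.65 ± 0.33 higher in U937 on the log2 scale (limma adjusted p = 0.000236). SLC38A1 (1.24 ± 0.36, limma adjusted p = 0.0204), SLC7A1 (1.20 ± 0.33, limma adjusted p = 0.0147) and SLC1A4 were also higher in U937, and all 4 of these are transporters. DDIT3 was lower in U937 by -1.50 ± 0.46 (limma adjusted p = 0.0249), as were ATF4, AARS and VLDLR. ATF4 was called within neither line, and its difference of -0.70 ± 0.28 (limma adjusted p = 0.0725) was lost without U937 pLKO replicate 2 or shRNF5 replicate 1, and without HL-60 pLKO replicates 1 or 3 or shRNF5 replicates 2 or 3.

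Between MOLM-13 and U937, 4 of 39 members differed, against 15.4% of all genes, and all were lower in MOLM-13. SLC7A5 differed by -2.01 ± 0.35 (limma adjusted p = 0.00782), SLC38A1 by -1.77 ± 0.38 (limma adjusted p = 0.0186) and ATF5 by -1.55 ± 0.47 (limma adjusted p = 0.0563). For the pair MOLM-13 and HL-60, 2 of 39 differed, against 8.82% of all genes. These were SLC7A11 at -1.30 ± 0.42 (limma adjusted p = 0.0924) and SLC3A2 at -1.13 ± 0.26 (limma adjusted p = 0.0296), both lower in MOLM-13. Without MOLM-13 pLKO replicate 3, SLC7A11 no longer passed (-1.27 ± 0.46, limma adjusted p = 0.113), SLC3A2 did (-1.03 ± 0.27, limma adjusted p = 0.044), and SLC7A5 passed with a response 0.91 ± 0.26 higher in MOLM-13 (limma adjusted p = 0.0598). The 4 differences between MOLM-13 and U937 passed without this library as well. For ASNS, which was called in U937 and HL-60 and not in MOLM-13, no difference between lines passed, and between MOLM-13 and U937 it was 0.06 ± 0.52 (limma adjusted p = 0.951), or 0.53 ± 0.37 without pLKO replicate 3.

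The responses of members with and without the core sequence were set side by side. In MOLM-13 the median log2 fold change was -0.41 over the 15 members with a match and -0.47 over those with a window and no match, and without pLKO replicate 3 these were -0.27 and -0.14. The same medians were -0.12 and -0.20 in U937, and -0.11 and -0.10 in HL-60. In HL-60 limma called 3 of 15 members with a match and 8 of 20 without, against 25.9% of all genes, in U937 4 of 15 and 3 of 19, against 15.7%, and in MOLM-13 2 of 15 and 0 of 21, against 2.04%.

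A further 150 genes around the response, in 9 lists, were read from the same fits. In MOLM-13 1 was called higher and 3 lower of 139 tested, in U937 9 and 10 of 134, and in HL-60 14 and 19 of 137. These are 2.88%, 14.2% and 24.1% of the genes tested, near the 2.04%, 15.7% and 25.9% of all genes, and so not a result about the lists. Among 16 genes of the eIF2 kinases and eIF2 control, limma called 0 in MOLM-13, with 3 lower and 0 higher at an unadjusted p under 0.05. EIF2S1, the eIF2 subunit that is phosphorylated, rose in U937 by 0.98 ± 0.26 on the log2 scale (limma adjusted p = 0.0528). PPP1R15B, the constitutive eIF2 phosphatase subunit, had log2 fold changes of -0.90 ± 0.25 in U937 (limma adjusted p = 0.0583) and -0.45 ± 0.14 in HL-60 (limma adjusted p = 0.0441) and so fell in both. Of other ATF4 partners and targets, 4 of 14 rose in HL-60 and 0 fell, led by SQSTM1, an autophagy receptor (log2 fold change 0.85), JDP2 (0.68) and HERPUD1 (0.64). In U937 JUN rose (log2 fold change 1.15) and PCK2, the mitochondrial phosphoenolpyruvate carboxykinase, fell (-0.77), and in MOLM-13 EIF4EBP1, which represses translation, fell (-0.81, or -0.67 and not called without pLKO replicate 3).

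Among the other amino acid transporters in HL-60, where 25.9% of all genes were called, 6 of 16 fell and 1 rose, with a list median log2 fold change of -0.28. SLC38A5, a relative of SLC38A1, fell there from a mean of 2210 ± 301 (SD, n = 3) to 887 ± 195 (SD, n = 3), a log2 fold change of -1.33 ± 0.16 (limma adjusted p = 0.00131). It also fell in MOLM-13 (log2 fold change -0.85 ± 0.17, limma adjusted p = 0.0816), and stood there at -0.93 and was not called without pLKO replicate 3. The taurine carrier SLC6A6 and the cationic and neutral amino acid carrier SLC7A6 fell in HL-60 as well (log2 fold changes -0.83 and -0.64), whereas SLC7A6 rose in U937 (0.99).

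Among 13 glutamine, glutamate and aspartate enzymes tested in each line, 1 rose and 1 fell in MOLM-13, 1 rose and 2 fell in U937, and 3 rose and 3 fell in HL-60. OAT, the ornithine aminotransferase, fell in MOLM-13 (log2 fold change -1.21) and HL-60 (-1.35), and GFPT1, which starts hexosamine synthesis, rose in both (0.81 and 0.95). Without pLKO replicate 3 OAT was still called in MOLM-13 (-1.41) and GFPT1 was not (0.92). GLUL, the glutamine synthetase, fell in U937 (-1.03) and rose in HL-60 (0.52). Of the other serine, glycine and folate enzymes, MTHFD1 rose in U937 (1.08) and fell in HL-60 (-0.51), and AMT fell in U937 (-2.37). GCLM, the modifier subunit of the enzyme that limits glutathione synthesis, rose in U937 (1.02) and HL-60 (0.53). Other cytosolic synthetases had 1 call in all, FARSB in HL-60 (-0.66), and mitochondrial synthetases 1 higher and 1 lower in U937, and 3 lower in HL-60. Of the genes for amino acid sensing to mTORC1, 1 rose and 3 fell of 25 in U937, 3 rose and 3 fell of 26 in HL-60, and 0 of 26 were called by limma in MOLM-13, with 4 higher and 2 lower at an unadjusted p under 0.05. LAMTOR4 had the largest fold change of these in U937 (-1.35), where LAMTOR1, of the same scaffold, rose (1.30).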

How the data were processed

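Groups (cell line and construct) and replicate numbers came from the sample labels. Reads had been aligned by the authors to hg19 (STAR), assigned to genes (featureCounts) and normalized per cell line (SARTools, using edgeR). Each deposited value is a score, the normalized read count as a rounded whole number, with filtered genes at 0. Values were read from 60566 rows, once per gene identifier, and no gene had conflicting values. The depth of each library was read from the steps between its low values, by a procedure checked on simulated data, and limits low genes most; no counting interval is given, since these are not counts.

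Each line was fitted with limma 3.58.1 in R 4.3.3 on log2(normalized read count + 1), by empirical Bayes moderation with a mean-variance trend (two-sided, Benjamini-Hochberg over all genes above 0 in the line), and calls were defined as in the report. Differences between lines came from one fit of 6 groups. The fits were tested on simulated data. Members and lists were chosen with earlier results of these data known. Named are ATF4, ATF5, DDIT3, TRIB3, CHAC1, ASNS and PHGDH in every line, the 4 largest called rises and 4 largest called falls in each line, members called in more than 1 line, the 3 largest passing differences in each pair of lines, and up to 3 called genes a list, of which 1 is not reported here. Other members named were chosen after their values were seen. Gene positions and transcript lengths are from GENCODE on GRCh37, and promoter windows from RefSeq on GRCh38.p14. Lengths were found for 12736 of 13026 genes in MOLM-13, 12847 of 13165 in U937 and 12288 of 12570 in HL-60. No window was at hand for PSPH, SHMT2, ALDH1L2, PYCR1, NUPR1, INHBE, SLC7A11, YARS and GPT2. Alternatives were a pseudocount of 0.5 or 10, dropping genes with a mean under 50, other scalings, no trend, a single fit, other thresholds, a replicate block and leaving out each library. A crossed block was added after the data were seen.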

Additional observations from a re-analysis of the deposited data

Results flagged for a closer look

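For 14 responses among the members, limma's test of the difference between lines passed at an adjusted p under 0.1, and each value is the first line's log2 fold change minus the second's. With MOLM-13 minus U937 these were -1.55 for ATF5, -2.01 for SLC7A5, -1.77 for SLC38A1 and -0.82 for SLC1A4. With MOLM-13 minus HL-60 they were -1.30 for SLC7A11 and -1.13 for SLC3A2. With U937 minus HL-60 they were -0.70 for ATF4, -1.50 for DDIT3, -0.87 for VLDLR and -0.98 for AARS, and 2.65 for SLC7A5, 1.20 for SLC7A1, 1.24 for SLC38A1 and 0.90 for SLC1A4. SLC7A5 moved in opposite directions in U937 and HL-60 in every shRNF5 library against every pLKO library. The ATF4 and VLDLR differences had log2 fold changes called within neither line.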

How the results depend on the processing

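Of the 24 calls within a line, 3 (SLC7A5, SLC38A1 and STC2 in HL-60) stayed past the thresholds under every alternative and 0 changed direction, and of the 14 differences between lines 5 stayed (SLC7A5 between MOLM-13 and U937, and SLC7A5, SLC7A1, SLC38A1 and SLC1A4 between U937 and HL-60) and 0 changed direction; the causes were not tested. Without each library in turn, between 0 and 11 members were called in MOLM-13 (0 without pLKO replicate 2 or shRNF5 replicate 2, 1 without pLKO replicate 3 or shRNF5 replicate 1, 11 without pLKO replicate 1), between 10 and 18 in HL-60, and 0 to 6 in U937. The members' median log2 fold change then ran from -0.56 to -0.27 in MOLM-13, -0.33 to -0.08 in U937 and -0.20 to -0.08 in HL-60. The members that differed ran from 1 to 8 between MOLM-13 and U937 (1 without MOLM-13 shRNF5 replicate 2 or U937 shRNF5 replicate 1, 8 without MOLM-13 pLKO replicate 1), 0 to 3 between MOLM-13 and HL-60 and 4 to 10 between U937 and HL-60 (4 without U937 shRNF5 replicate 1). Without the mean-variance trend 1 member was called in MOLM-13 and 0 in U937 (limma), and 1 differed between MOLM-13 and HL-60. One fit over all libraries called 9 in MOLM-13 and 6 in HL-60. Of all genes it called 270 higher and 328 lower of 13026 in MOLM-13, and 1501 and 1269 of 12570 in HL-60. The MOLM-13 fit without pLKO replicate 1, with 11 members called, called 417 genes higher and 455 lower. The HL-60 fit without shRNF5 replicate 2, with 18 members called, called 1767 genes higher and 1646 lower of 12570. The one without shRNF5 replicate 3, with 10 members called, called 1055 and 936. Without MOLM-13 pLKO replicate 1, where 8 members differed between MOLM-13 and U937, 1009 and 1173 of 11072 genes did. Counts above from fits that leave 1 library in a group have no share of all genes beside them. An adjusted p under 0.05 left 1 member in MOLM-13, 2 in U937 and 1 difference between MOLM-13 and HL-60. Of all genes it left 13 higher and 26 lower in MOLM-13, 320 and 504 in U937, and 139 and 221 of these differences. An absolute log2 fold change over 1 left 3 members in U937 and 4 in HL-60, beside 571 genes higher and 888 lower in U937 and 463 and 356 in HL-60. Pseudocounts, the filter on low values and other scalings kept each of the counts of members within 1.5 times. Among ATF4, ATF5, DDIT3, TRIB3, CHAC1, ASNS and PHGDH, some uncalled values changed sign without a library. In MOLM-13 these ranged from -0.61 to 0.05 for ATF5 and -0.38 to 0.11 for DDIT3. In U937 they ranged from -0.63 to 0.35 for TRIB3 and -0.50 to 0.27 for CHAC1, and in HL-60 from -0.02 to 0.30 for ATF4 and -0.26 to 0.10 for PHGDH. Other uncalled members changed sign too, such as SESN2 in MOLM-13, at 0.11 with all libraries and -0.14 without pLKO replicate 2.

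A replicate block on the shared replicate numbers called 8 members in MOLM-13, where pLKO replicate 3 has no partner and drops out of the estimate. In HL-60 it called 14 members, with 1878 genes higher and 1702 lower of 12570. In MOLM-13 it called 384 genes higher and 354 lower of 13026, and ATF5 stood at 0.05 and DDIT3 at 0.11. The study's heat map numbers the MOLM-13 shRNF5 libraries otherwise than the labels do, so the pairing tried there is uncertain. Same-numbered deviations correlated at -0.304 in MOLM-13. With replicates 1 and 2 only, the check there yields a single value and its opposite, so it cannot decide the pairing. In HL-60 same-numbered deviations correlated at 0.386, 0.12 and -0.0466. Of the pLKO libraries there, only replicate 1 correlated best with its own number, and of the shRNF5 libraries replicates 1 and 2 did. A crossed replicate block in MOLM-13, added after the data were seen, called 14 members (2 higher and 12 lower), with ATF5 again at 0.05 and DDIT3 at 0.11. It called 1520 genes higher and 1396 lower of all 13026, far more than the main fit with 134 and 132. U937 groups share a single replicate number, so no paired fit was possible there. Depth limits the low members most, such as INHBE, CHAC1 and SLC6A9.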
